A study of Rattus norvegicus with 9 samples.

Results

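The comparison set cells carrying the O4 antigen against cells carrying both NG2 and A2B5, both derived from cultures of oligodendrocyte progenitor cells (OPC) of newborn rats. Its members are 6 of the 9 arrays of the series: 3 titled O4-I, O4-II and O4-III and 3 titled NG2/A2B5-I, NG2/A2B5-II and NG2/A2B5-III, chosen by those titles. The O4 cells are labelled NG2 negative, the NG2/A2B5 cells NG2 positive, and 3 further arrays hold cells described by NG2 alone. The series text speaks of 3 cultures, and the question it sets is how each population differs from the other 2. The labels used here name no strain, treatment or pooling of animals and do not tie a numeral to a culture, so p-values here measure only the spread between these arrays.

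Oligodendrocyte progenitors mature through stages that are recognised by surface antigens. A2B5 marks gangliosides of early glial progenitors, NG2 is a proteoglycan encoded by Cspg4, and O4 recognises sulfatide on cells that are further along towards the oligodendrocyte, the cell that wraps axons in myelin. Each array reports the scaled brightness of its probes in intensity units, so levels of different genes are not ranked here. A gene was called well detected when its probe averaged over 0.5 units across the 6 arrays, which held for 9013 of 12199 genes. Array medians lay between 1.05 and 1.07 units on all 9 arrays. All 6 measured markers of a list of 7 for the oligodendrocyte lineage were well detected, and they summed to 290.3 to 475 units in O4 and 320 to 492 in NG2/A2B5. Among them Sox10, a transcription factor of the whole oligodendrocyte lineage, read 36.1, 29.7 and 47.6 in O4 against 31.2, 32.2 and 40.8 in NG2/A2B5. Mbp, the gene of myelin basic protein, was not well detected, at 0.0581 to 0.371 units over the 6 arrays.

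Differences between the populations were small. The median size of the difference was 0.14 on the log2 scale, or 1.10-fold, and the median 95% interval reached 0.52, or 1.43-fold, to either side. Of 9012 well-detected genes tested with limma, 0 were higher and 0 lower at a Benjamini-Hochberg adjusted p under 0.05 (0% in each direction; 51.3% had a positive and 48.7% a negative difference), and the lowest limma adjusted p was 0.975. At an unadjusted p under 0.05 there were 97 genes higher in O4 (1.08%) and 83 lower (0.921%). With the numeral as a fixed block these became 255 (2.83%) and 214 (2.37%), with 0 genes called and a lowest adjusted p of 0.804. The values that follow are therefore descriptions of these 6 arrays, and no well-detected gene passed the test of the main model.

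A simpler count asked for genes whose 3 O4 arrays all lay on one side of the 3 NG2/A2B5 arrays. Of 8926 well-detected genes with all 6 values, 403 had every O4 array higher (4.51%) and 316 had every O4 array lower (3.54%). With 3 arrays a side, genes that do not differ can separate fully by chance, so these counts are descriptions and no test. Over 2-fold differences were fitted for 34 genes higher (0.377%) and 23 lower (0.255%). Among all 12165 genes tested, weakly detected ones included, limma called 1: Igkv28, an immunoglobulin light chain segment, at -7.64 with an adjusted p of 0.00709 (1 gene lower, 0.00822%). Its 3 O4 readings were below 0 and its NG2/A2B5 readings were 0.128, 0.0614 and 0.0755 units, so both lay at the bottom of the scale. With the fixed block its adjusted p was 0.122.

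The numerals differed in what they showed. Taking O4 minus NG2/A2B5 within each numeral, the SD over well-detected genes was 0.35 in I, 0.50 in II and 0.46 in III. Across genes, which are not independent replicates, the differences of II and III correlated at Pearson r = 0.241 (Spearman 0.328), against 0.0216 for I and II (Spearman -0.0258) and 0.0252 for I and III (Spearman -0.00570). No 2 numerals share an array. In the first 3 principal components of the 6 arrays, the first held 37.2% of the variance and the third 19.1%. On the third component O4-II and O4-III scored -16.0 and -19.3 and their NG2/A2B5 counterparts 23 and 8.59. O4-I and NG2/A2B5-I scored 1.02 and 2.63, so this axis separated the populations in II and III and hardly in I. Differences in 1 direction in all 3 numerals were seen for 1349 genes higher (15.1%) and 1257 lower (14.1%).

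**Figure D1:**
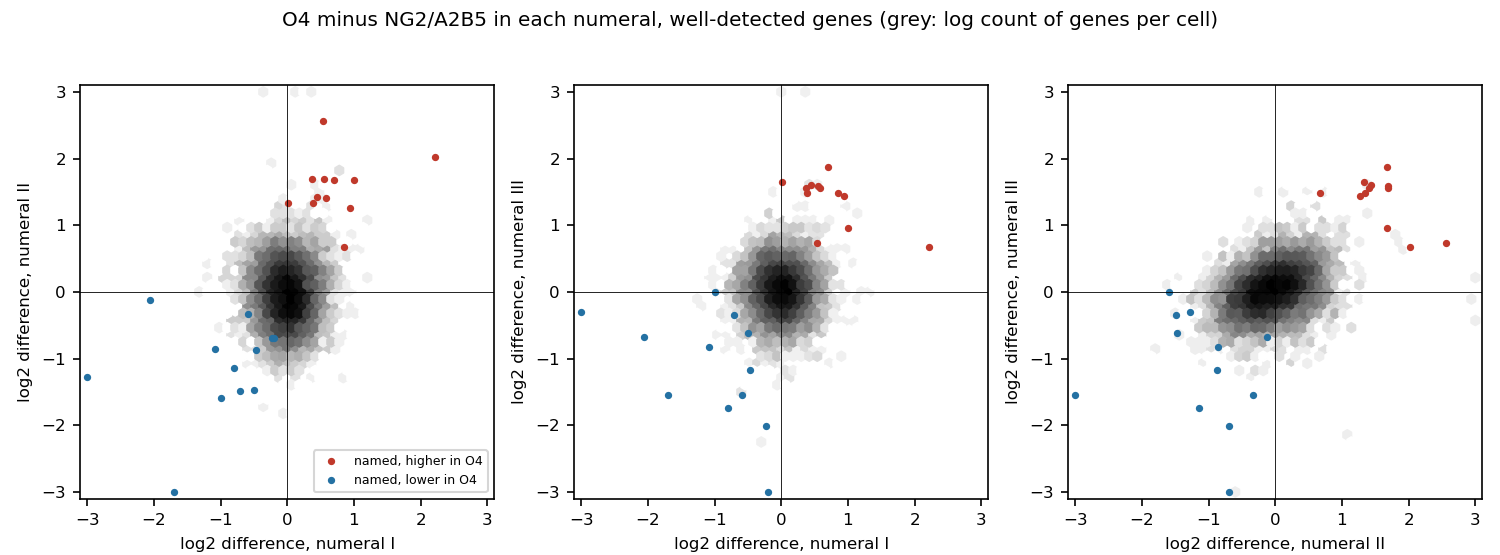
Log2 differences of O4 minus NG2/A2B5 within each numeral, plotted against each other for the 8926 well-detected genes; values past 3 are drawn at the edge, grey cells show the log count of genes, and red and blue points are the 24 genes named for their size. The cloud is tilted for numerals II and III (r = 0.241) and round for I against II (0.0216) and I against III (0.0252).

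Among genes higher in O4, Plod1 and Ggcx, both enzymes that modify proteins after translation, had some of the largest separations. Plod1, a lysyl hydroxylase that modifies collagens, read 2.76, 2.92 and 4.97 units in O4 against 1.70, 0.915 and 1.35 in NG2/A2B5. All O4 arrays lay above all NG2/A2B5 arrays, with a difference of 1.42 ± 0.31 on the log2 scale (SE, as after each ± below; 2.67-fold; unadjusted limma p 0.00218). Ggcx, the vitamin K-dependent gamma-glutamyl carboxylase, read 2.19, 2.26 and 4.08 against 1.14, 0.938 and 1.5. Its groups did not overlap either, the difference was 1.22 ± 0.32, and it held in each numeral, at 0.94, 1.27 and 1.44. In the cells described by NG2 alone, Plod1 read 5.25, 4.43 and 6.49 and Ggcx 2.21, 3.72 and 3.38, which puts NG2/A2B5 as the low population of the 3.

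Igfbpl1, which encodes a protein related to insulin-like growth factor binding proteins, had the smallest p among the well-detected higher genes. It read 2.44, 2.93 and 2.90 in O4 against 1.63, 1.10 and 0.991 in NG2/A2B5. The O4 arrays lay close together above all NG2/A2B5 arrays, with a difference of 1.18 ± 0.21 (2.26-fold; unadjusted limma p 5.61e-04). In NG2 cells it read 0.899, 0.980 and 1.05, so here O4 was the high population. Hsp90ab1, the constitutive cytosolic HSP90 chaperone, showed the same order at a brighter probe: 44.4, 41.8 and 35.8 in O4, 20.7, 26.0 and 21.2 in NG2/A2B5 and 22.0, 22.9 and 17.9 in NG2. No O4 array came near the others, and the difference from NG2/A2B5 was 0.85 ± 0.17 (1.80-fold), largest in numeral I at 1.10. Dnajc1, an endoplasmic reticulum co-chaperone, read 3.11, 6.36 and 5.14 against 2.13, 1.97 and 1.72, a difference of 1.27 ± 0.33 with O4-II the highest. The wider list of heat shock and chaperone genes did not share this: 29 of 57 well-detected members were higher and 28 lower, with a median of 0.01, beside 51.3% higher and a median of 0.01 over all well-detected genes.

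Cd302, a C-type lectin receptor, read 6.50, 9.41 and 12.3 in O4 against 4.98, 3.72 and 4.40 in NG2/A2B5. The O4 arrays spread widely and still lay above the other population, by 1.07 ± 0.26. Cbln1, a secreted organiser of synapses, read 3.7, 3.44 and 4.27 against 2.55, 1.68 and 2.17. Its O4 arrays were all higher, by 0.85 ± 0.18, and its NG2 arrays higher again at 5.56, 5.91 and 5.70. The potassium channel gene Kcnk12 read 1.36, 2.02 and 1.70 against 0.928, 1.05 and 0.949, with no overlap and a difference of 0.78 ± 0.18. Hmx2, a homeobox transcription factor, read 6.50, 6.20 and 7.65 against 4.77, 2.30 and 2.51, where NG2/A2B5-I stood closer to O4 than the other 2 did. Its difference was 1.16 ± 0.30.

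The largest fitted difference of the 12 named for their size was that of Cfap126, a gene of motile cilia, at 1.64 ± 0.46. It read 1.73, 0.901 and 0.540 in O4 against 0.372, 0.223 and 0.337 in NG2/A2B5, with no overlap, but the NG2/A2B5 arrays lay below the 0.5-unit limit. The other ependymal markers on the arrays, Foxj1 and Tmem212, averaged 0.139 and 0.0804 units and were not well detected. Fam161a, another cilium gene, read 0.981, 0.706 and 0.947 against 0.488, 0.221 and 0.487. O4 was higher in each numeral, at 1.01, 1.68 and 0.96 on the log2 scale, with the NG2/A2B5 arrays again all below the limit. Cilium genes as a list divided evenly, with 17 of 33 higher and a median of 0.01. The remaining genes named for size were Cdon (1.27), Crnde (1.21), Cand2 (1.0) and Inf2 (1.0). The NG2/A2B5 arrays of Crnde, at 0.381, 0.205 and 0.332 units, lay below the limit. So did NG2/A2B5-II and NG2/A2B5-III for Inf2, at 0.314 and 0.360. Cdon, a co-receptor of hedgehog signalling, had its highest reading on O4-II, at 1.97 units, while O4-I and O4-III read 0.757 and 0.772 and the NG2/A2B5 arrays 0.334 to 0.524.

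**Figure D2:**
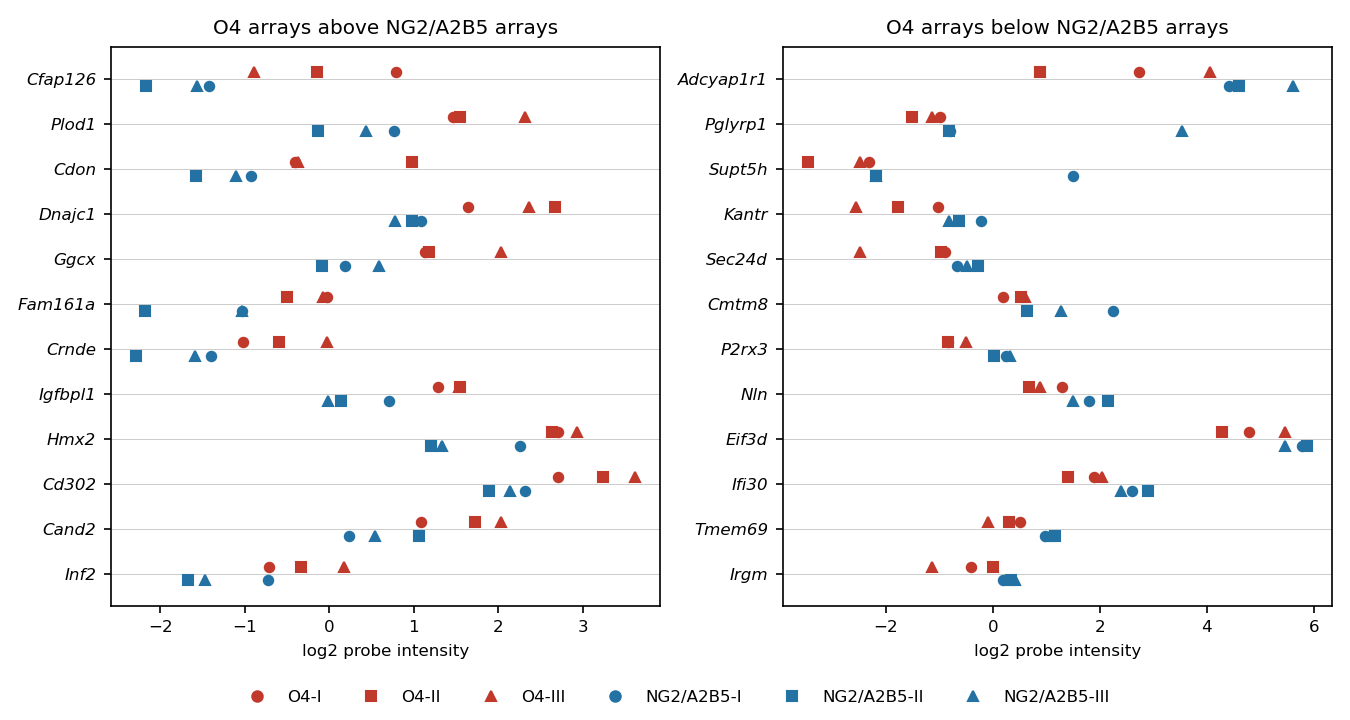
Log2 probe intensity on the O4 arrays (red) and the NG2/A2B5 arrays (blue) of the 12 genes per direction with the largest differences among those whose arrays do not overlap; symbols give the numeral. On the left the population means differ by 1.0 to 1.64 log2 units. The nearest arrays lie closer, and those of Cand2 (1.08 against 1.06) and Inf2 (-0.71 against -0.72) nearly touch. On the right Pglyrp1, Supt5h and Cmtm8 rest on 1 high NG2/A2B5 array.

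Adcyap1r1, the receptor of the neuropeptide PACAP, had the largest difference in the other direction among well-detected genes whose arrays did not overlap and was the only well-detected gene below its NG2/A2B5 partner by over 2-fold in each numeral (0.0112% of genes). It read 6.62, 1.83 and 16.7 units in O4 against 21.4, 24.4 and 49.0 in NG2/A2B5. All O4 arrays lay lower, by -1.69, -3.73 and -1.55 in numerals I, II and III, and the fitted difference was -2.33 ± 0.76. The NG2 cells, at 21.1, 19.8 and 39.5, stood with NG2/A2B5. A second well-detected probe of the gene, at a mean of 0.769 units, differed the other way, by 0.47. The gene's difference thus rests on its brighter probe.

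Ifi30, a lysosomal thiol reductase of antigen processing, read 3.7, 2.66 and 4.10 in O4 against 6.04, 7.42 and 5.23 in NG2/A2B5. The populations did not overlap, with a difference of -0.85 ± 0.24. Nln, the peptidase neurolysin, read 2.44, 1.59 and 1.84 against 3.46, 4.42 and 2.82, again without overlap, and differed by -0.87 ± 0.26. Eif3d, a subunit of translation initiation factor eIF3, read 27.6, 19.4 and 43.8 against 54.9, 58.5 and 44.0. In numeral III its arrays were almost level, so the difference of -0.86 ± 0.30 came from I and II. Snx16, a sorting nexin of endosomes, read 3.90, 3.41 and 4.31 against 5.59, 7.14 and 6.62, and Ap1g1, a subunit of the AP-1 clathrin adaptor, read 1.54, 1.69 and 1.31 against 2.44, 2.90 and 2.16. Both had separate groups, at -0.73 ± 0.17 and -0.72 ± 0.19, and Ap1g1 was even across numerals at -0.66, -0.78 and -0.72. Shisa3, an inhibitor of Wnt and FGF receptor maturation, read 3.20, 2.19 and 2.37 against 3.43, 4.62 and 4.81, a difference of -0.73 ± 0.21 that was slight in numeral I.

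A number of the large differences came from a single array. Pglyrp1, a peptidoglycan recognition protein, read 11.5 units on NG2/A2B5-III and 0.349 to 0.576 on the other 5 arrays, and Supt5h, a transcription elongation factor, read 2.83 on NG2/A2B5-I and 0.0907 to 0.220 elsewhere. In all, 37 well-detected genes had 1 array over 2 log2 units away from the other 5, and 13 of these readings were on O4-II. Of 55 genes over 2-fold with all 6 values, 26 had such a reading and 14 had arrays that did not overlap. In 7 of these 14 the mean of the lower population was under the 0.5-unit limit, so they counted as well detected through the higher one. Acsl3, an acyl-CoA ligase, shows the extreme: it read 70.4 to 87.6 units on 5 arrays and -0.129 on NG2/A2B5-III.

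Pairing by numeral brought forward genes whose level moved with the numeral, named here after their values were seen. Nog, the secreted BMP antagonist noggin, read 1.85, 0.350 and 0.642 in O4 against 0.927, 0.165 and 0.261 in NG2/A2B5. The populations overlap, since numeral I was high in both, yet O4 lay above its partner each time, by 1.0, 1.08 and 1.30 on the log2 scale. It is 1 of 3 genes over 2-fold higher in each numeral (0.0336%), and the others, Asip and C14h5orf52, had readings near 0. Nog itself lay below the 0.5-unit limit on O4-II, NG2/A2B5-II and NG2/A2B5-III, so its differences in II and III rest on low readings. Svil, the actin-binding membrane scaffold supervillin, read 13.6, 7.24 and 7.24 against 9.71, 4.76 and 5.14, which is 0.49, 0.61 and 0.49 higher. Itpr1, a calcium release channel of the endoplasmic reticulum, read 1.32, 1.15 and 0.834 against 1.80, 1.79 and 1.26, which is -0.45, -0.63 and -0.60. With the block the unadjusted limma p was 0.0164 for Nog, 0.0031 for Svil and 0.00344 for Itpr1, and the adjusted p was 0.804 for each.

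A fit chosen after the data were seen, with only the well-detected genes, the fixed block and limma's trend and robust variance estimates, called 5 genes higher and 0 lower. They were Plod1 (adjusted p 0.00451), Ggcx (0.0218), Hsp90ab1 (0.0218), Igfbpl1 (0.0396) and Cd302 (0.0444). With all genes kept in that fit Plod1 was called alone, at 0.0489, and with well-detected genes but either the block or the variance estimates left out 0 genes were called. Leaving out 1 of the 6 arrays, all 5 stayed under 0.05 without O4-I or without NG2/A2B5-I and none did without any other array, with adjusted p up to 0.135 for Plod1 and 0.516 for Cd302. The number of genes called by that fit was 103 without NG2/A2B5-I, 21 without O4-I and 0 or 1 without any other array. These 5 calls thus depend on the setting and on the arrays of numerals II and III.

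Of the 5 genes measured behind the surface antigens, 4 were lower in O4, 1 was higher and none passed the test. Cspg4, which encodes NG2 itself, read 125, 92.1 and 154 units in O4 against 104, 127 and 185 in NG2/A2B5. The O4 cells are labelled NG2 negative by their antigen, while the arrays read RNA, so the 2 are unlike measures. In RNA the populations overlap widely, and the difference was -0.15 ± 0.27 (95% interval -0.78 to 0.47). Without O4-II it was 0.04 and without NG2/A2B5-III 0.07. Ugt8, whose enzyme forms galactosylceramide for sulfatide, read 3.53, 1.94 and 4.30 against 3.48, 3.96 and 6.21, with overlap and a difference of -0.51 ± 0.38. For the gangliosides behind A2B5, the sialyltransferase St8sia1, which makes GD3, read 2.11, 2.71 and 1.30 against 2.65, 3.15 and 2.21, lower in each numeral but overlapping, at -0.44 ± 0.32. St8sia3, another sialyltransferase, read 2.29, 1.75 and 1.69 against 2.31, 2.55 and 2.35. Its O4 arrays were all lower, by -0.02 in numeral I, with a difference of -0.34 ± 0.18. B4galnt1, which turns GD3 and GM3 into the next gangliosides, went the other way in each numeral: 8.95, 5.34 and 7.92 against 5.48, 3.85 and 5.31, or 0.71, 0.47 and 0.58, with a fitted difference of 0.59 ± 0.25.

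The series is titled for refilins and filamins, actin cross-linking proteins and the partners that regulate them. Rflna, the gene of refilin A, read 20.6, 15.2 and 17 in O4 against 24.1, 30.5 and 35.5. All O4 arrays were lower, by -0.22, -1.01 and -1.06 in numerals I, II and III, and the fitted difference was -0.76 ± 0.46 (95% interval -1.84 to 0.31). The SE and interval come from the fit over all 9 arrays, so they also carry the spread of the NG2 cells. With 1 of the 6 arrays left out the difference ranged from -0.91 to -0.63. Rflnb read 7.18, 8.78 and 4.0 in O4 and 7.91 and 4.76 on NG2/A2B5-I and NG2/A2B5-III, with no value on NG2/A2B5-II. The fit without a block gave 0.04 ± 0.41 and the fit with the fixed block -0.14, so its sign depends on how the missing array is treated. Flna, the widely expressed filamin, read 75.8, 71.1 and 56.2 against 61.5, 68.0 and 41.1. The arrays overlap, O4 was higher in each numeral, and the difference was 0.27 ± 0.28. Flnc stayed near 1 unit on all 6 arrays, at -0.10 ± 0.14.

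**Figure D3:**
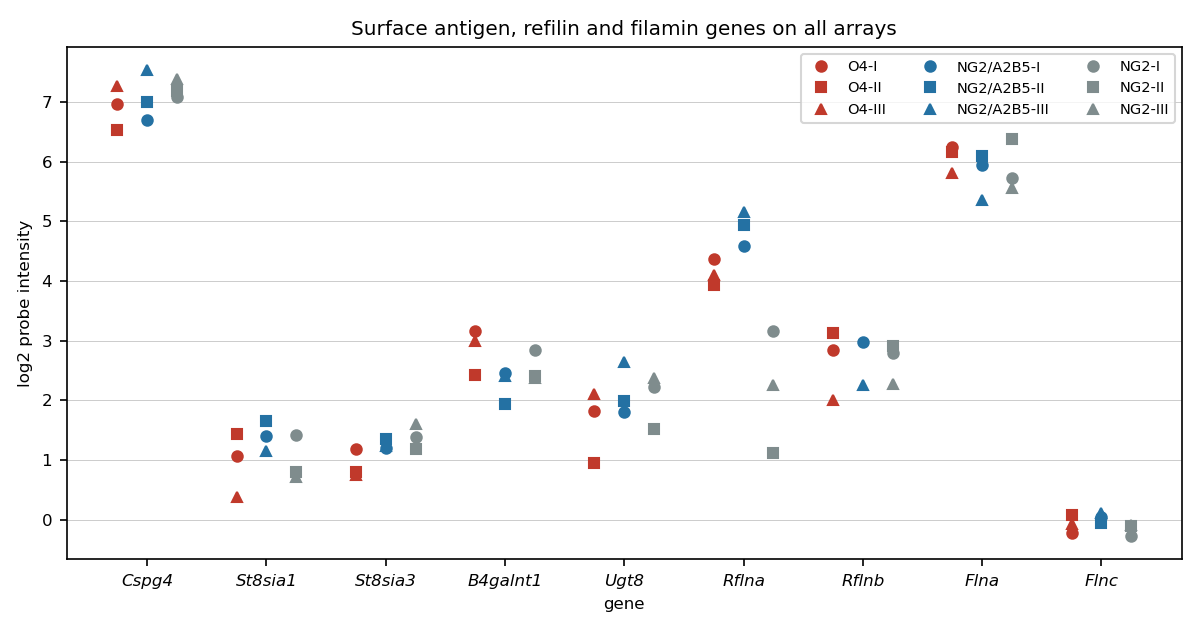
Log2 probe intensity of the surface antigen, refilin and filamin genes on all 9 arrays, with O4 in red, NG2/A2B5 in blue and NG2 in grey and symbols for the numeral. Cspg4 overlaps in all populations, and the O4 arrays lie wholly below the NG2/A2B5 arrays for Rflna (15.2 to 20.6 against 24.1 to 35.5 units) and St8sia3.

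Genes of the myelin sheath were split, with 15 of 30 well-detected members higher in O4 and 15 lower and a median of 0.02. Each list is read beside all well-detected genes, of which 51.3% were higher with a median of 0.01. Of the 30, 11 were higher in each numeral and 2 lower in each, beside 15.1% and 14.1% of all genes. Pmp2, a fatty acid-binding protein of myelin, read 1.60, 1.39 and 1.65 against 0.856, 0.799 and 0.686. The populations were well apart, with a difference of 0.99 ± 0.23 (1.98-fold; unadjusted limma p 0.00255). Lpar1, a lysophosphatidic acid receptor of oligodendrocytes, read 4.25, 3.95 and 5.49 against 3.11, 2.02 and 2.66, also without overlap. Its difference was 0.82 ± 0.24, and a second well-detected probe gave 0.16. Evi2a, a membrane protein gene expressed in oligodendrocytes, read 4.16, 4.62 and 3.89 against 3.67, 2.37 and 2.87, the third of 30 members with every O4 array higher, beside 4.51% of all well-detected genes, at 0.53 ± 0.20. Against these, Cldn11, the tight junction protein of myelin, read 0.754, 0.236 and 0.303 in O4 against 0.648, 0.846 and 0.549 in NG2/A2B5, with overlap and a difference of -0.83 ± 0.71 that was 0.26 with the mean of its probes.

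Of 23 progenitor genes, 15 were higher and 8 lower, with a median of 0.12. The numerals were uneven, with medians of 0.003, 0.18 and -0.09 in I, II and III and 10 of 22 higher in III, and the list's median was -0.07 without O4-III and -0.02 without NG2/A2B5-II. Pdgfra, the growth factor receptor of progenitors, was higher in O4 in numerals II and III (1.91 and 0.71) and lower in I (-0.88), reading 0.275, 0.802 and 0.917 against 0.506, 0.213 and 0.559. Its O4-I and NG2/A2B5-II readings lay below the 0.5-unit limit and the rest under 1 unit, so these differences rest on low readings. Tnr, the matrix protein tenascin-R, was 0.39, 0.56 and 0.58 higher in the 3 numerals. Of 17 genes of the premyelinating stage, 8 were higher and 9 lower, with a median of -0.01. Tcf7l2, a transcription factor of that stage, read 44.2, 31.3 and 51.9 against 50.6, 50.2 and 70.3. It was lower in each numeral with overlapping arrays, at -0.44 ± 0.23, and its other well-detected probes gave -0.74 and 0.29. Of 16 genes listed as brakes on myelination, 12 were lower and 4 higher, with a median of -0.14 (0.02, -0.34 and -0.18 in I, II and III). Myef2, a repressor of the myelin basic protein gene, read 21.0, 21.4 and 21.3 against 21.7, 27.8 and 25.8. Its O4 arrays were nearly identical and all lower, at -0.24 ± 0.14, and a second well-detected probe gave -0.01. Hes1, a Notch target that represses neural differentiation, read 0.783, 1.02 and 0.70 against 0.641, 0.60 and 0.62, with every O4 array higher, by 0.41 ± 0.21.

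Cytosolic ribosomal protein genes gave the most one-sided list of those with 10 or more well-detected members, with 35 of 39 well-detected members higher in O4, 4 lower and a median of 0.24. Beside this, 51.3% of all well-detected genes were higher. The numerals did not share it: the median was -0.13 in I, 0.48 in II and 0.33 in III, and 34 members were higher in both II and III while 10 of 39 were higher in I. Rps26 was higher in all 3, reading 528, 595 and 555 against 400, 433 and 446, with no overlap and a difference of 0.39 ± 0.15. Rps16 read 45.3, 73.4 and 66.9 against 44.5, 38.5 and 43.8, which is level in I and 0.93 and 0.61 higher in II and III. Rplp1, a stalk protein of the large subunit, read 351, 528 and 584 against 386, 321 and 344 and was lower in numeral I. A second Rplp1 probe gave 0.40 beside 0.45. Genes of this family have near-identical copies in the genome, which a probe may not tell apart. The mean log2 intensity of the list by array was 5.95, 6.40 and 6.24 in O4 against 6.10, 5.97 and 5.89 in NG2/A2B5, so NG2/A2B5-I stood above O4-I. Quantile normalization lowered the median to 0.13, and leaving out O4-II lowered it to 0.12.

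The promoters of these genes are shown because the list moved together in II and III. Vertebrate ribosomal protein messages are known to begin with a run of pyrimidines that serves their translation. The letters CTTTCC or CTTTTCC were searched on the gene's strand, from 30 bases before to 30 after the annotated start, in RefSeq promoters of build GRCr8. The 2 motifs do not lie one inside the other but can share bases where both occur. Of the 39 well-detected members 32 matched a promoter, and 17 of these (53.1%) held either motif, against 3.33% of all 33469 promoters in a window of the same 60 bases. The 4 members with the motif and the largest difference follow, 5′ to 3′ on the gene's strand, with motif matches in capitals. They are Rps16 at chr1:92770628-92770687 on the plus strand, Rps15 at chr7:10068086-10068145 on the minus strand, Rplp1 at chr8:71290843-71290902 on the minus strand and Rpl31 at chr9:49143081-49143140 on the plus strand.
Rps16: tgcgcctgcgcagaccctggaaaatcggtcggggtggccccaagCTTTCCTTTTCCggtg
Rps15: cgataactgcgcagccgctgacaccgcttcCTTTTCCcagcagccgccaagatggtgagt
Rplp1: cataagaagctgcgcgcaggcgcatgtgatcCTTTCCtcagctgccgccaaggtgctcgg
Rpl31: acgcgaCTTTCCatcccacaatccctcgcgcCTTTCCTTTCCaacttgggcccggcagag
Members with and without a match had median differences of 0.29 (17 genes) and 0.22 (15 genes). A match describes the letters of the window only.

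The mitochondrial lists followed the same numerals. Of 70 respiratory chain genes 53 were higher and 17 lower with a median of 0.08, made of -0.21 in I, 0.21 in II and 0.21 in III, and 50 of 69 were higher in both II and III. Mitochondrial ribosomal protein genes were higher in 40 of 58, with a median of 0.06 and numeral medians of -0.11, 0.15 and 0.23. Proteasome genes were higher in 27 of 44, with a median of 0.04 that was -0.03 without NG2/A2B5-III, -0.01 without O4-II and -0.01 under quantile normalization. Under quantile normalization the respiratory chain median was 0.02. Psmd12, a regulatory subunit of the proteasome, stood out from its list at 14.9, 6.54 and 7.45 against 21.6, 23.3 and 13.8, lower in each numeral by -0.54, -1.83 and -0.89 though its arrays overlap.

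**Figure D4:**
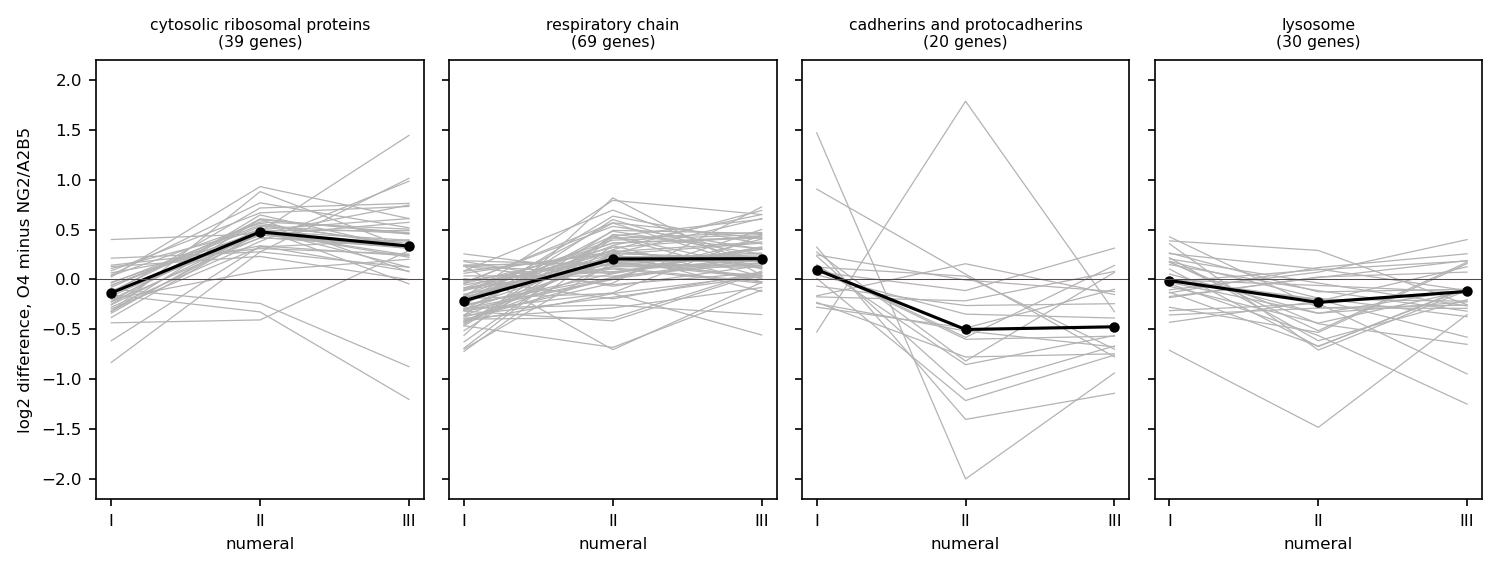
Log2 difference of O4 minus NG2/A2B5 within numerals I, II and III for each well-detected member with all 6 values (grey lines join the same gene; numerals have no order) and the list's median (black). Ribosomal protein genes sit below 0 in I and above 0 in II and III (medians -0.13, 0.48 and 0.33), and cadherins the other way (0.10, -0.50 and -0.47).

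Cadherins were mostly lower in O4 in the same 2 numerals. Of 20 cadherins and protocadherins, which join cells through calcium-dependent contacts, 16 were lower and 4 higher, with a median of -0.21 (0.10, -0.50 and -0.47 in I, II and III). Cdh6 read 1.02, 0.864 and 0.945 against 1.20, 1.23 and 1.51 and was the one member of 20 without overlap, beside 3.54% of all well-detected genes, at -0.48 ± 0.19. Pcdh19 read 3.54, 1.69 and 2.12 against 2.83, 4.47 and 4.67, so it was higher in I and differed by -1.40 and -1.14 in II and III. Without O4-II the median of the cadherin list was -0.01. Itgb1, the beta subunit of most integrins, read 24.9, 27.3 and 29.4 against 36.1, 37.2 and 34.7, separate groups at -0.41 ± 0.17, while the average of all its probes gave 0.14. The other Itgb1 probe averaged 0.281 units and was not well detected. Integrins as a list divided 6 and 6, with numeral medians of 0.17, 0.07 and 0.01.

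Guidance genes, the ligands and receptors that steer growing processes, showed the direction in all numerals. Of 30 well-detected members 22 were lower and 8 higher, with a median of -0.13 and numeral medians of -0.08, -0.20 and -0.17, and 8 were lower in each numeral against 0 higher in each. Sema4d, a semaphorin made by oligodendrocyte lineage cells, read 7.67, 7.63 and 9.38 against 9.80, 9.95 and 11.6. The groups did not overlap and the pairs were alike, at -0.35, -0.38 and -0.31, but a second well-detected probe, at a mean of 0.589 units, gave 0.48. Epha4, an ephrin receptor, read 5.53, 7.16 and 4.38 against 7.22, 9.38 and 5.76. Its arrays overlap because the numerals differ in level, and its pairs were -0.38, -0.39 and -0.39. Its other well-detected probes gave -0.23, -0.19 and -0.51 and were less even. Each of them was above 0 in 1 numeral, at 0.17 in III, 0.13 in I and 0.28 in I. The median of the list lay between -0.15 and -0.09 whichever array was left out.

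Lysosome genes were lower in 23 of 30, with a median of -0.15, and 10 were lower in each numeral against 0 higher in each. Glb1, the lysosomal beta-galactosidase, read 14.5, 11.7 and 14.7 against 18.6, 14.3 and 17.9, with overlap and pairs of -0.36, -0.29 and -0.29. Outside this list, Neu3, a sialidase that acts on gangliosides, read 8.94, 8.06 and 9.04 against 11.8, 11.3 and 9.97, without overlap, at -0.34 ± 0.14. The lysosome median moved to 0.03 without O4-II and to -0.03 without NG2/A2B5-III. Fatty acid synthesis genes were lower in 12 of 15, with a median of -0.08. The numeral medians were 0.04, -0.20 and -0.20 in I, II and III. In I 10 of 15 were higher, and 11 were lower in both II and III. Elovl6, an elongase, read 7.75, 5.61 and 6.70 against 8.90, 12.3 and 7.84, with no overlap and a difference of -0.52 ± 0.23. A second well-detected Elovl6 probe was lower only in numeral II, at 0.07, -0.97 and 0.13 in I, II and III. Fads2, a desaturase, was higher in O4 in each numeral, by 0.11, 0.19 and 0.15.

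**Figure D5:**
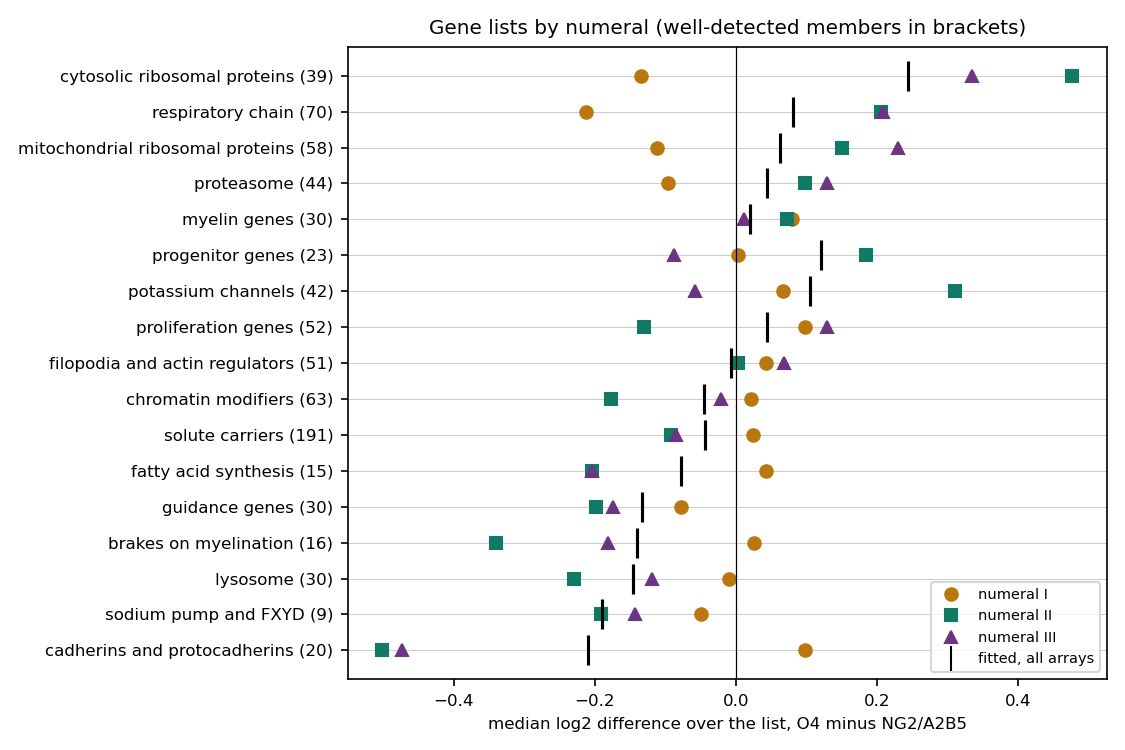
Median log2 difference of O4 minus NG2/A2B5 over the well-detected members of 17 gene lists, within each numeral (coloured symbols) and in the fit over all arrays (black bars). Ribosomal protein, respiratory chain and cadherin medians change sign between numeral I and numerals II and III, while guidance genes stay below 0 in all 3 (-0.08, -0.20 and -0.17).

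Filopodia and actin regulators, the process named in the series title, were level: 25 of 51 higher, 26 lower, a median of -0.01. Baiap2, the IRSp53 protein that bends membrane into filopodia, read 27.7, 29.9 and 28.5 against 24.0, 22.7 and 22.1. Its populations were apart with little spread, at 0.33 ± 0.12, but a second well-detected probe gave -0.23. Of the motor genes, 26 of 38 kinesins and dyneins were higher, with a median of 0.09. In this list 2 members had every O4 array higher and 2 every O4 array lower, beside 4.51% and 3.54% of all well-detected genes. Among the higher ones Dync2i2, a subunit of the ciliary dynein, read 22.5, 22.9 and 26.6 against 18.8, 15.5 and 16.6. Its difference was 0.50 ± 0.15, without overlap. Tubb4a, the tubulin of mature oligodendrocytes, read 2.00, 3.55 and 4.15 against 1.70, 1.89 and 1.96. All O4 arrays were higher, by 0.74 ± 0.34. Tubulins and microtubule proteins as a list had 16 of 28 higher, with a median of 0.04. Of 27 with all 6 values, 1 had every O4 array higher and 2 every O4 array lower.

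Chromatin modifiers were lower in 38 of 63, with a median of -0.04, and 3 had an unadjusted limma p under 0.05 in that direction and 0 in the other, beside 0.921% and 1.08% of all well-detected genes. Kmt2e, of the MLL family, read 5.15, 4.84 and 7.10 against 8.32, 7.96 and 10.4. The populations did not overlap, the pairs were -0.69, -0.72 and -0.55, and 2 further well-detected probes gave -0.25 and -0.17. Tet2, an enzyme that oxidises methylated cytosine, read 4.11, 2.81 and 4.33 against 5.26, 5.18 and 5.76, at -0.55 ± 0.22. Kmt2c, a histone H3 lysine methyltransferase, read 9.48, 6.63 and 8.80 against 10.3, 13.7 and 11.7, at -0.53 ± 0.18. Both had O4 wholly below NG2/A2B5. Proliferation genes were higher in 33 of 52, with a median of 0.04 and no shared sign across numerals (0.10, -0.13 and 0.13). Potassium channels were higher in 30 of 42, with a median of 0.11, but at -0.06 in numeral III.

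Stress and activation genes were higher more often than lower. Of 22 immediate early genes 16 were higher, with a median of 0.10 that was -0.03 without O4-II, and of 24 genes of the integrated stress response 18 were higher, with a median of 0.15. The second median was -0.20 without O4-II, -0.07 without NG2/A2B5-III and 0.40 without NG2/A2B5-II, so these arrays decided its sign and size. Numeral II was high in both populations: the stress list averaged 3.74 on O4-II and 3.58 on NG2/A2B5-II, and 2.34 to 2.75 on the other 4 arrays.

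Markers of other cell types differed in part between the populations. Of 14 microglia markers 4 were well detected, and their summed intensity over all 14 was 13.4 to 18.0 in O4 and 12.1 to 13.3 in NG2/A2B5. None of the 4 well-detected markers had separate arrays. The sums did not overlap, but were nearly level at 13.39 on O4-III against 13.29 on NG2/A2B5-I. Itgam, an integrin subunit of microglia, read 6.50, 7.94 and 5.24 against 5.42, 3.88 and 4.11 and made up much of them, while Cx3cr1, C1qa and Ptprc averaged under 0.2 units. Astrocyte markers summed to 65.4 to 156 in O4 and 101.3 to 160.3 in NG2/A2B5, with Gfap at 0.113 to 0.597 units. Neuron markers summed to 5.94 to 21.4 and 5.58 to 23.6. Ependymal markers summed to 0.685 to 1.92 in O4 and 0.305 to 0.626 in NG2/A2B5, without overlap, most of it from Cfap126. Fibroblast markers summed to 21.1 to 25.8 and 22.5 to 26.9. Of their 2 well-detected members, the collagen gene Col1a1 read 6.33, 7.84 and 4.92 against 8.04, 11.1 and 9.91. Every O4 array of Col1a1 was lower, beside 3.54% of all well-detected genes, while the other member was higher by 0.12. Schwann cell markers, which include Pmp2, summed to 18.7 to 27.2 and 20.1 to 32.8. The part of such cells in the differences above was not tested, and in bulk samples fewer cells of a type and less RNA per cell cannot be told apart.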

How the data were processed

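RNA of each population was amplified by 2 rounds of in vitro transcription and hybridised with spiked controls, per the labels. The deposited values are probe intensity on a linear scale, 35129 probes on 9 arrays; their scaling, scanner and software are not given in sources used here. No further normalization was applied. Values at or below 0 were set to the array's smallest positive value before log2. Of the probes 16865 carry 1 symbol, 165 several and 18099 none, and the last 2 classes were left out. Symbols came by Entrez identifier from RefSeq GRCr8 (16836 matched, 1 updated), and the brightest probe stood for each gene.

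limma 3.58.1 in R 4.3.3 (lmFit and eBayes, two-sided) fitted all 9 arrays without a block, and p-values were adjusted over all 12165 genes tested. Same-numeral arrays of different populations deviated together from their population means (r 0.291 to 0.559 for all 9 pairs, -0.432 to -0.014 for arrays of different numerals), so blocked values are given where they alter a count. An exact test of 3 against 3 arrays cannot go below 0.10. Precision is limited by how few arrays there are.

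The genes, 63 lists and members were chosen with earlier results of these data known. The naming rule takes up to 12 genes per direction with the largest difference and separate arrays, 6 with the smallest p, the surface antigen, refilin and filamin genes, any gene called and 3 per list with the smallest p, of which the text prints a part. Further examples from the lists were named after their values were seen. Other settings were quantile normalization, centred medians, a floor of 0.25, an offset of 1, the mean of a gene's probes, a limit of 1 unit, blocks, 6 arrays only, well-detected genes only, trend and robust estimates (statmod 1.5.0), and leaving out each array. The fit was tested on simulated data. Promoters were searched in Python 3.11.15 and figures drawn with matplotlib 3.10.9.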

Additional observations from a re-analysis of the deposited data

How the results depend on the processing

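No well-detected gene was called under any setting run other than 2 fits added after the data were seen. Igkv28 kept its call under quantile normalization, centring, the mean of probes, the random block, the 6 arrays alone and the 1-unit limit. The count of called genes that were lower, 1 in the main model, was 0 with the floor of 0.25, the offset of 1, the fixed block, the 6 arrays with the block, well-detected genes only, and trend and robust estimates, and 0 in each of the 4 combinations added after the data were seen. Igkv28 read 0 with the floor. Called higher genes were 0 except for 5 in the added fit of well-detected genes with block, trend and robust estimates and 1 with all genes in that fit. In the main model, leaving out arrays gave 0 to 3 higher and 0 to 2 lower, none of them well detected. At an unadjusted p under 0.05, higher genes numbered 146 with centring, 207 with the floor, 156 with the offset, 255 with the replicate block, 204 with the random block (correlation 0.274), 164 with the 6 arrays and block, and 384, 351 and 371 in the added block fits (all 3 parts, without trend, with all genes). Lower genes numbered 193 with the floor, 168 with the offset, 214 and 192 with the fixed and random block, and 377, 336 and 371 in the added fits. Without each array they ranged from 78 to 151 higher and 42 to 155 lower. Genes over 2-fold numbered 18 higher and 13 lower without isolated readings, 7 and 3 with the offset, 126 and 103 with the mean of probes, 21 and 9 above 1 unit, 14 lower with the floor, and 41 to 71 higher and 29 to 56 lower without an array. The mean of probes turned the sign of Itgb1 (0.14), Gabrb1 (-0.60), Cldn11 (0.26), Acsl1 (0.021) and Cdkn2b (0.35). The probes added to these genes averaged 0.0983 to 0.337 units and were not well detected. Rflnb, with a missing array, was -0.14 with the fixed block in each fit that used it on 9 arrays, -0.037 with the random block and -0.20 with 6 arrays and block. Without an array it ranged from -0.32 to 0.41, Cspg4 from -0.34 to 0.073, Cdkn1a from -0.0034 to 0.98 and Ndrg1 from -0.076 to 1.35. Of the 63 list medians, 39 changed sign without 1 of the arrays, among them myelin genes (-0.15 without NG2/A2B5-II) and proliferation genes (-0.06 without NG2/A2B5-III). The block changed no other call. Causes of these moves were not tested, apart from fewer arrays or genes where a setting leaves them out. Probes near 0.5 units limit what the low genes show, since a fixed scatter there is a large one in log2.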

Other observations

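Cell cycle brakes gave values outside the comparisons above. Of 11 well-detected members 7 were higher in O4 and 4 lower, with a median of 0.02. Cdkn1a, the p21 inhibitor, read 128, 360 and 125 units in O4 and 99.5, 246 and 83.6 in NG2/A2B5, with numeral II high in both populations and O4 above its partner by 0.37, 0.55 and 0.58 on the log2 scale. A second well-detected Cdkn1a probe, at a mean of 1.77 units, gave -0.61, 1.05 and 1.04 in I, II and III. Cdkn2b, the p15 inhibitor, read 11.5, 24.8 and 4.92 against 12.2, 39.3 and 13.2, lower in each numeral by -0.09, -0.66 and -1.42. Neither separated the populations. Acsl1, an acyl-CoA ligase, read 3.68, 8.48 and 4.84 against 5.48, 15 and 14.2, lower in each numeral with overlapping arrays, at -0.98 ± 0.44.

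Second probes offer a check within the same arrays. For 1915 genes with a second well-detected probe, the 2 differences correlated at r = 0.256 across genes and had the same sign for 62.2%. Among 137 such genes with separate arrays the share was 69.3% (95 genes), and 12 of 14 with a difference over 0.5 log2 units had the same sign. Of the 2232 brightest genes, above 23.6 units, 124 had all O4 arrays higher and 51 all lower. The other 3 groups of about as many genes, from bright to dim, gave 67 and 89, 91 and 97, and, for the dimmest, 121 and 79, so the balance did not follow brightness in 1 direction.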
